A study of Mus musculus with 8 samples.

Results

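Receptors and markers of neutrophils and inflammatory myeloid cells were followed in mouse epidermis through 10 genes, namely Csf3r, Cd300lf, Trem1, Trem3, Fpr1, Fpr2, Clec4d, Clec4e, Ly6g and Retnlg. They were chosen by name, each symbol being mapped from its Ensembl identifier, and make up 10 of the 54232 identifiers counted in every library. The libraries were made from total RNA of scraped back-skin epidermis of female mice on an F1 background of C57Bl and 129. REDD1 knockout (KO) mice lack the product of Ddit4, a stress-induced inhibitor of mTORC1 signalling, and the labels describe no cell type restriction of the knockout. Shaved skin of KO and wild-type (WT) mice was treated with the glucocorticoid fluocinolone acetonide (FA, 2 ug) 1 h before the tumour-promoting phorbol ester TPA (4 ug), with TPA alone, or with the acetone vehicle (200 ul). Skin given TPA, with or without FA, was taken 24 h after TPA. There was 1 library for each of KO FA+TPA, WT FA+TPA, KO TPA and WT TPA, and there were 2 libraries each for KO vehicle and WT vehicle, so 8 in all.

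Neutrophils leave the blood and enter the epidermis when keratinocytes release chemoattractants, and phorbol esters are a classical trigger of this infiltration in mouse skin. Most of the genes followed here encode receptors that tell such cells to survive, move and fire. Csf3r binds granulocyte colony-stimulating factor, Fpr1 and Fpr2 sense formylated bacterial peptides, and Trem1 amplifies inflammatory signals through the adaptor Tyrobp. Trem3 is a related activating receptor of mouse myeloid cells. Clec4d (MCL) and Clec4e (Mincle) recognise mycobacterial glycolipids and signal through Fcer1g, Syk and Card9, whereas Cd300lf is a lipid-binding receptor with an inhibitory cytoplasmic tail. Ly6g is the surface antigen by which mouse neutrophils are usually sorted, and Retnlg is a secreted resistin-like protein of bone marrow granulocytes. Glucocorticoids restrain leukocyte recruitment to inflamed skin.

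In GENCODE M21 annotation of mm10, all 10 are protein-coding genes, several of them neighbours. Csf3r (ENSMUSG00000028859) lies at chr4:126024550-126044440 on the plus strand and Cd300lf (ENSMUSG00000047798) at chr11:115116214-115133992 on the minus strand. Trem1 (ENSMUSG00000042265, chr17:48232768-48246924) and Trem3 (ENSMUSG00000041754, chr17:48247777-48258841) stand side by side on the plus strand. Fpr1 (ENSMUSG00000045551, chr17:17876471-17883940, minus strand) and Fpr2 (ENSMUSG00000052270, chr17:17887824-17893952, plus strand) are a second pair on chromosome 17. Clec4d (ENSMUSG00000030144, chr6:123262111-123275265, plus strand) and Clec4e (ENSMUSG00000030142, chr6:123281789-123289870, minus strand) form a pair on chromosome 6. Ly6g (ENSMUSG00000022582) lies at chr15:75155240-75159126 and Retnlg (ENSMUSG00000022651) at chr16:48872621-48874496, both on the plus strand. Fpr2 shared 31.5% of its 50-base exon windows with Fpr1, Fpr3 or Gm5966, so its counts are uncertain. Csf3r shared 10.8% of its windows with 402 other genes and Cd300lf 2.44% with 484 other genes, so reads from those windows are uncertain too. Each of the other members shared under 1% of its windows with any other gene.

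Promoter sequence was available from RefSeq (GRCm38.p6) for 9 of the 10 genes and is shown for 3 of them because it illustrates a base motif common to these genes, whatever their level. Capitals mark GAGGAA, the core bound by the myeloid factor PU.1 and other ETS proteins, or its reverse complement TTCCTC. Each line gives the 120 bases before the RefSeq start, 5′ to 3′ on the gene's strand, at chr11:115133993-115134112 (minus strand) for Cd300lf, chr6:123289872-123289991 (minus strand) for Clec4e and chr17:17887704-17887823 (plus strand) for Fpr2.
Cd300lf: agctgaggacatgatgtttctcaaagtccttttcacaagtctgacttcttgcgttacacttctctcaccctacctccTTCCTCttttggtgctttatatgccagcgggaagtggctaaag
Clec4e: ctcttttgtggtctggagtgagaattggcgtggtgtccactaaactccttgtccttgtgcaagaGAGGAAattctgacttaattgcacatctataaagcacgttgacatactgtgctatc
Fpr2: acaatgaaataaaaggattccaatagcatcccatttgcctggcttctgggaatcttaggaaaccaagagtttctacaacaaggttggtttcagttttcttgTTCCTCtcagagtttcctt
Searched on both strands of the 250 bases before the start, GAGGAA was found in 7 of 9 members (all but Fpr1 and Retnlg) and in 23.25% of 32851 promoters. TTNNGNAA, a C/EBP-type motif, was found in 8 of 9 (all but Csf3r) and in 36.85% of all promoters. ACANNNTGT, the half-site pair of the glucocorticoid receptor, was found in 3 of 9 (Cd300lf, Trem1 and Clec4e) and in 5.835% of all promoters. The AP-1 motif TGANTCA and an NF-kB-type motif were found in 0 of 9 members, against 6.749% and 0.9802% of all promoters. The searched motifs can overlap each other, and a match in these windows describes letters, not binding.

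The libraries held between 16874233 and 22560098 counts, so a floor of 3 counts was worth 0.133 CPM in the deepest and 0.178 CPM in the shallowest. CPM expresses a count relative to the size of its library, and levels below are CPM after TMM normalisation. Intervals and floors cover counting error only. Ddit4 stood at 7.25 CPM in KO FA+TPA, 4.44 CPM in KO TPA, and 18.8 and 18.6 CPM in KO vehicle, against 90.3, 64.2, 128 and 117 CPM in the matching WT libraries. It was therefore lower in every KO library than in any WT library. One noncoding transcript, Gm26917, took from 16.8% to 24.2% of counts in treated libraries and from 8.34% to 13.8% in vehicle libraries. The labels do not say whether the paired vehicle libraries came from separate animals, so p-values reflect only how these libraries vary, which could be technical variation. Each treated group had 1 library.

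Vehicle-treated epidermis held almost none of these transcripts. Summed over the 10 genes, KO vehicle libraries had 13 and 4 counts and WT vehicle libraries 10 and 8 counts. Csf3r was the only member to pass 3 counts in a vehicle library, with 5 and 3 counts in KO vehicle and 7 and 4 counts in WT vehicle. Trem1, Trem3 and Ly6g had 0 counts in all 4 vehicle libraries, and the remaining 6 had at most 3 counts in any of them. No difference between the genotypes was detectable at this depth, because a gene at 0 in 1 library could still have been present at up to the floor. For Csf3r, KO vehicle minus WT vehicle was -0.67 ± 0.59 on the log2 scale (edgeR adjusted p = 0.822).

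**Figure D1:**
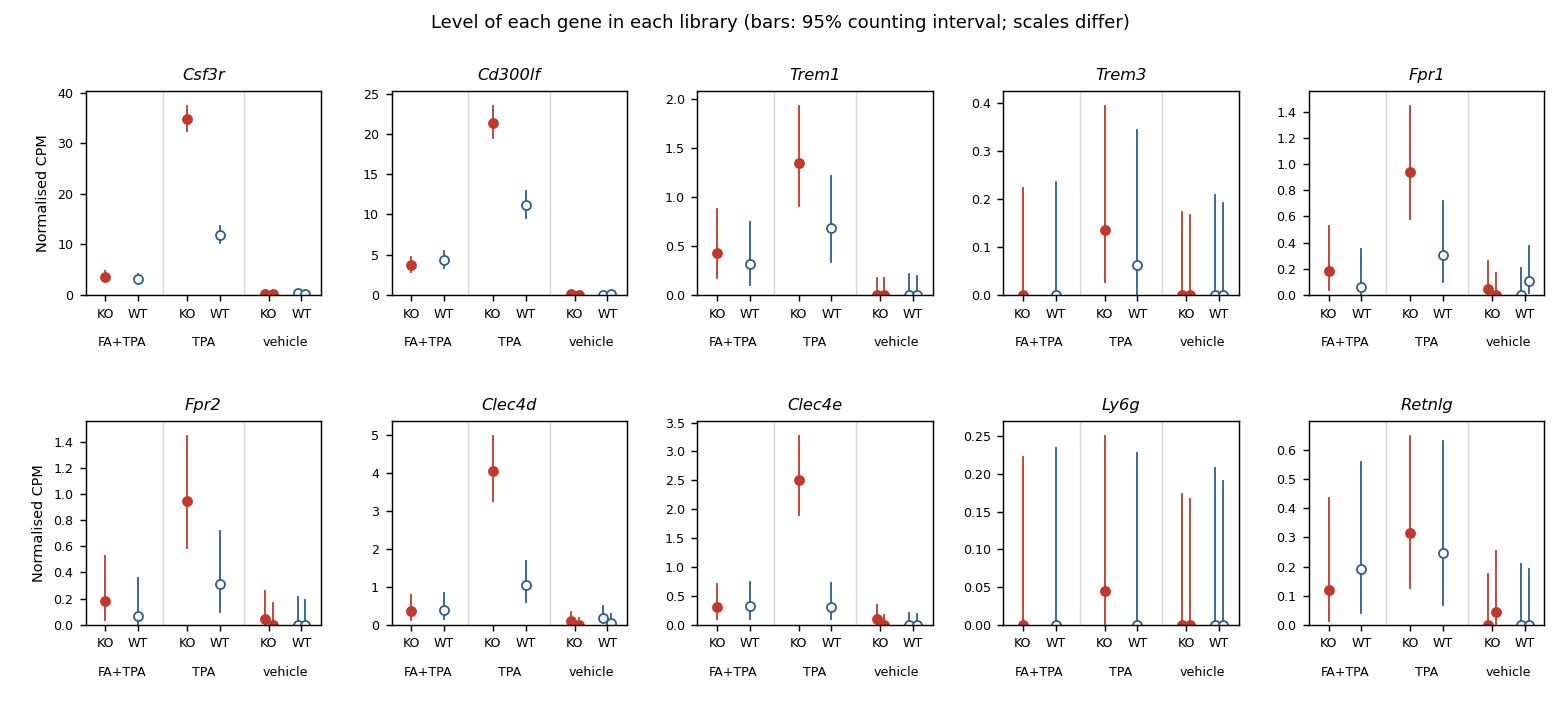
Normalised CPM of each of the 10 genes in each of the 8 libraries, with KO filled and WT open and bars for the 95% counting interval of each library; the vertical scales differ between genes. The KO TPA library is the highest of the 8 for every gene, from 34.8 CPM for Csf3r down to 0.0449 CPM for Ly6g, which is 1 count, and vehicle points lie on or next to 0.

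In TPA-treated skin most of these genes stood far above that near-empty baseline in both genotypes. Csf3r, the receptor that keeps neutrophils alive and mobilised, had 34.8 CPM in KO TPA and 11.9 CPM in WT TPA, against 0.234 and 0.136 CPM in KO vehicle and 0.396 and 0.207 CPM in WT vehicle. Both TPA libraries lay far above all 4 vehicle libraries, and the pooled level was 106-fold higher (95% counting interval 67.7 to 177). The log2 change over both genotypes was 6.51 ± 0.37 (SE; edgeR quasi-likelihood test, Benjamini-Hochberg adjusted p = 4.65e-07). It was 5.62 without the KO TPA library and 7.16 without the WT TPA library, and passed in both.

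Cd300lf, the inhibitory receptor, had 21.4 CPM in KO TPA and 11.2 CPM in WT TPA, against 0.0938 and 0 CPM in KO vehicle and 0 and 0.0517 CPM in WT vehicle. The groups did not overlap, and the log2 change was 8.52 ± 0.43 (edgeR adjusted p = 2.43e-07). It ranged from 7.93 without the KO TPA library to 9.34 without the first KO vehicle library. Only 3 counts lay behind the vehicle level, so the pooled ratio of 458 had a counting interval from 156 to 2226. Its gene overlaps Rab37 on the opposite strand but shares no exon base with it, and Rab37 stood between 0.254 and 1.24 CPM in the 8 libraries.

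Of the receptors that pair with activating adaptors, Trem1 had 1.35 CPM in KO TPA and 0.678 CPM in WT TPA, and 0 in all 4 vehicle libraries. That is at least 28.5-fold higher, against a floor of 3 counts over the vehicle group (0.0373 CPM), and the fit gave an adjusted p of 0.000266 (edgeR). Clec4d had 4.04 CPM in KO TPA and 1.05 CPM in WT TPA, against 0.0938 and 0 CPM in KO vehicle and 0.170 and 0.0517 CPM in WT vehicle (log2 change 4.91 ± 0.63, edgeR adjusted p = 0.000108). The change in Clec4d was 3.49 without KO TPA and 5.88 without WT TPA, and passed in both (edgeR). Both genes were above every vehicle library in both TPA libraries.

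Csf3r, Cd300lf, Trem1 and Clec4d were the 4 members that passed the filter on low counts, and they passed only through their treated libraries. They therefore had to differ from vehicle, and the 4 calls among them, beside 23.2% of all 19251 tested genes called higher, say nothing beyond each gene's own value. The median log2 change of all tested genes was -0.028.

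The other 6 members were too scarce for that test. Clec4e, the Mincle receptor encoded next to Clec4d, had 56 counts in KO TPA and 5 in WT TPA, against 2 and 0 in KO vehicle and 0 and 0 in WT vehicle. Fpr1 had 21 counts in KO TPA and 5 in WT TPA, and its vehicle counts did not exceed 2. Fpr2 also had 21 and 5 counts, and its vehicle counts did not exceed 1. Their relative Fpr3 was at 0 in all 8 libraries.

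Retnlg had 7 counts in KO TPA and 4 in WT TPA, against 0 and 1 in KO vehicle and 0 and 0 in WT vehicle. Trem3 had 3 and 1 counts under TPA and Ly6g 1 and 0, which do not pass the floor. With no filter on low counts, edgeR called 8 of the 10 genes higher under TPA, all but Trem3 (adjusted p = 0.158) and Ly6g (adjusted p = 0.589). Over all 10 genes, 9 had both TPA libraries above all 4 vehicle libraries, beside 18.9% of the 34515 genes with any count. The exception was Ly6g.

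Per kilobase of exon, the order in KO TPA was Csf3r (9.64 CPM per kb), Cd300lf (4.16) and Clec4d (2.53), then Fpr2 (0.727), Fpr1 (0.712), Retnlg (0.530), Clec4e (0.506) and Trem1 (0.449). In WT TPA the first 3 kept that order, at 3.30, 2.17 and 0.655 CPM per kb. Below them the order differed, with Retnlg (0.416) next and Clec4e (0.0621) near the bottom, and these lower levels rest on 11 counts or fewer in WT TPA. Csf3r and Cd300lf together made up 84.5% of the members' counts in KO TPA and 88.6% in WT TPA, so any sum over the 10 genes is mostly a sum over 2.

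In skin given FA before TPA, Csf3r, Cd300lf and Clec4d were below their TPA level, and Csf3r, Cd300lf and Trem1 were still above vehicle. Csf3r had 3.62 CPM in KO FA+TPA and 3.12 CPM in WT FA+TPA, against 34.8 CPM in KO TPA and 11.9 CPM in WT TPA. It fell by 2.67 ± 0.34 on the log2 scale (edgeR adjusted p = 0.000943), which in pooled levels is 0.134 of the TPA value (counting interval 0.109 to 0.164). The change was -1.83 without KO TPA and -3.37 without WT TPA, and it passed under every alternative tried. Against vehicle, the same FA+TPA libraries were still higher by 3.85 ± 0.45 (edgeR adjusted p = 0.000135).

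Cd300lf had 3.68 CPM in KO FA+TPA and 4.33 CPM in WT FA+TPA, against 21.4 CPM in KO TPA and 11.2 CPM in WT TPA. It fell by 1.96 ± 0.30 (edgeR adjusted p = 0.00251), and FA+TPA remained above vehicle by 6.56 ± 0.52 (edgeR adjusted p = 1.11e-05). The fall of Cd300lf lost its call without the KO TPA library (-1.43, edgeR adjusted p = 0.0712), without the KO FA+TPA library (-1.41, 0.0695) and with limma-voom (adjusted p = 0.177).

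Clec4d had 0.362 CPM in KO FA+TPA and 0.382 CPM in WT FA+TPA, against 4.04 CPM in KO TPA and 1.05 CPM in WT TPA. It fell by 2.65 ± 0.64 (edgeR adjusted p = 0.0248), a call that depended on single libraries. The change was -1.28 (adjusted p = 0.494) without KO TPA, -1.84 (0.389) without KO FA+TPA and -3.27 (0.0757) without WT FA+TPA, and limma-voom gave an adjusted p of 0.180. Clec4d in FA+TPA skin was 2.26 ± 0.91 above vehicle, which did not pass (edgeR adjusted p = 0.0841). It passed without the low-count filter (0.0171), without WT TPA (0.0448) and without the first WT vehicle library (0.0338), and over the alternatives its adjusted p reached 0.377.

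Trem1 had 0.423 CPM in KO FA+TPA and 0.318 CPM in WT FA+TPA, against 1.35 CPM in KO TPA and 0.678 CPM in WT TPA, a difference of -1.42 ± 0.53 that did not pass (edgeR adjusted p = 0.155). Its FA+TPA level was at least 9.96-fold above the vehicle floor (edgeR adjusted p = 0.0048). Of the 4 tested members, 3 were thus called lower in FA+TPA than in TPA, beside 4.31% of all tested genes. Against vehicle, 3 were called higher in FA+TPA, beside 17.4% of all tested genes. Since high treated libraries carried them through the filter, neither count supports more than the single values.

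Among the scarcer members, Clec4e had 5 counts in KO FA+TPA and 5 in WT FA+TPA, against 56 in KO TPA and 5 in WT TPA. The count of Clec4e thus differed between the treatments in KO and was the same in WT. Fpr1 and Fpr2 each had 3 counts in KO FA+TPA and 1 in WT FA+TPA, against 21 and 5 under TPA. Retnlg had 2 and 3 counts under FA+TPA, against 7 and 4 under TPA. In all, 8 of 10 members had both FA+TPA libraries below both TPA libraries, beside 18.7% of genes with any count, the others being Clec4e and Ly6g. Both FA+TPA libraries lay above all 4 vehicle libraries for 7 members, beside 17.2% of genes with any count.

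**Figure D2:**
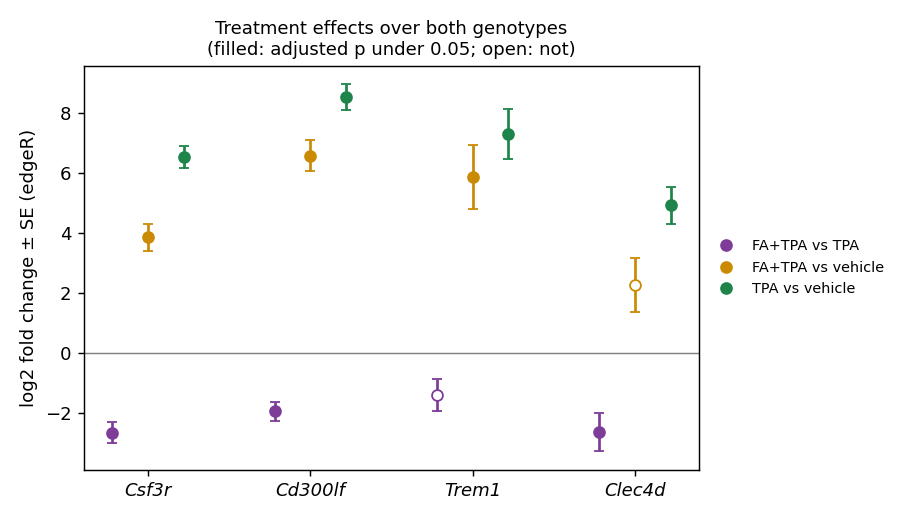
Log2 fold changes with SE from the edgeR fit over both genotypes for the 4 genes that passed the low-count filter, with filled points for an adjusted p under 0.05; the Trem1 changes against vehicle depend on how its 0 counts are fitted. FA+TPA lies below TPA and above vehicle for each gene, except that the FA+TPA points of Trem1 against TPA and of Clec4d against vehicle are open.

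The KO TPA library had the highest level of all 8 libraries for each of the 10 genes, beside 14.1% of genes with any count. KO TPA thus exceeded WT TPA for all 10, beside 44.6%. For Trem3 (3 counts against 1) and Ly6g (1 against 0) this rests on counts at or under the floor, and KO TPA was the deepest library. Csf3r in KO TPA was 2.92 times its WT TPA level (counting interval 2.49 to 3.44), Cd300lf 1.92 times (1.61 to 2.29), Clec4d 3.86 times (2.28 to 6.91) and Clec4e 8.16 times (3.30 to 26.1). Fpr1 and Fpr2 each stood at 3.06 times (1.12 to 10.4). The intervals of Trem1 (1.99, 0.968 to 4.39) and Retnlg (1.27, 0.324 to 5.94) included 1. These ratios compare 1 library with 1 library and have no replicate check.

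Under FA+TPA the genotypes lay close together. Csf3r in KO FA+TPA was 1.16 times its WT FA+TPA level (counting interval 0.784 to 1.73) and Cd300lf 0.852 times (0.593 to 1.22). Over the 10 genes, KO was higher in 4, beside 39.8% of genes with any count, WT was higher in 4, and 2 were at 0 in both. Summed over the 10 genes, the level was 8.88 CPM in KO FA+TPA and 8.78 CPM in WT FA+TPA, against 66.5 CPM in KO TPA and 26.0 CPM in WT TPA.

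In the edgeR fit with the low-count filter over all 8 libraries, and in DESeq2, no test of genotype passed for a member. Over all treatments, KO minus WT was 0.84 ± 0.31 for Csf3r (edgeR adjusted p = 0.211), 0.46 ± 0.29 for Cd300lf (0.515), 0.77 ± 0.51 for Trem1 (0.555) and 1.04 ± 0.57 for Clec4d (0.428). Neither called any of the 4, beside 3.58% of all tested genes called either way by edgeR. At an unadjusted edgeR p under 0.05 stood 1 of the 4 (Csf3r) and 3083 of the 19251 tested genes. Without the KO TPA or the WT TPA library the Csf3r difference was -0.039 and -0.011, so it rested on the TPA pair. Without any filter on low counts, edgeR called Csf3r (0.84, adjusted p = 0.0125) and Clec4e (1.98, adjusted p = 0.0298), and limma-voom called Csf3r (1.16, adjusted p = 0.0352). Over the alternatives the Csf3r adjusted p reached 0.997.

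In treated skin alone, KO minus WT was 0.88 ± 0.23 for Csf3r (edgeR adjusted p = 0.173), and edgeR and DESeq2 called none of the 4 members, beside 0.488% of all tested genes called by edgeR. Csf3r alone of the 4 had an unadjusted edgeR p under 0.05, as did 8.81% of all tested genes. Leaving out any single vehicle library left the Csf3r difference at 0.87 to 0.88. The spread in those fits came from the single remaining vehicle pair, so no p-value is given for them. In every fit of treated skin the single treated libraries are assumed to vary like the vehicle libraries. In vehicle skin edgeR and DESeq2 also called none, beside 2.17% of all tested genes called by edgeR. No member had an unadjusted edgeR p under 0.05 there, against 11.5% of all tested genes.

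Whether the genotypes responded differently was tested directly for Csf3r, the one member with counts above the floor in vehicle skin of both genotypes. The TPA response of Csf3r was larger in KO than in WT by 2.22 ± 0.66 on the log2 scale, which did not pass (unadjusted p = 0.00735, edgeR adjusted p = 0.584), beside 0.00519% of all tested genes called and 5.27% at an unadjusted p under 0.05. The FA difference was also tested for all 4. As the KO minus WT difference in the change between FA+TPA and TPA, it was -1.33 ± 0.45 for Csf3r, -1.17 ± 0.53 for Cd300lf, -0.58 ± 1.20 for Trem1 and -2.01 ± 1.18 for Clec4d. None passed in edgeR (each adjusted p above 0.999) or DESeq2, and edgeR called 0% of all tested genes. Csf3r alone of the 4 had an unadjusted edgeR p under 0.05, as did 3.18% of all tested genes.

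Within a genotype, with 1 library set against 1 library and no replicate check, Csf3r in FA+TPA skin was 0.104 of the TPA level in KO (counting interval 0.0787 to 0.136) and 0.262 in WT (0.187 to 0.360). For Cd300lf the values were 0.172 in KO (0.130 to 0.225) and 0.388 in WT (0.289 to 0.515). For Clec4e they were 0.120 in KO and 1.03 in WT, the WT value resting on 5 counts in each library.

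**Figure D3:**
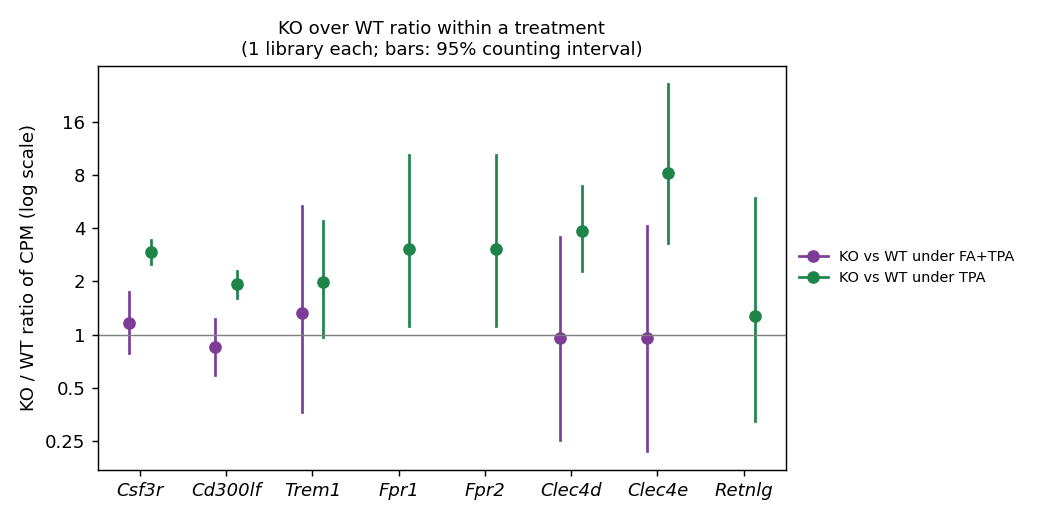
Ratio of KO to WT level (log scale) under FA+TPA and under TPA for the genes with enough counts for a ratio, with 95% counting intervals; each ratio compares 1 library with 1 library. Under TPA the points run from 1.27 (Retnlg) to 8.16 (Clec4e), and under FA+TPA the intervals of Csf3r, Cd300lf, Trem1, Clec4d and Clec4e all include 1.

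The balance between the most abundant members also differed among the treated libraries. Cd300lf made up 50.4% of the summed Csf3r and Cd300lf counts in KO FA+TPA (exact binomial 95% interval 41.2 to 59.6) and 58.1% in WT FA+TPA (48.6 to 67.2), against 38.1% in KO TPA (35.4 to 40.9) and 48.4% in WT TPA (43.2 to 53.6). Its share was higher in each FA+TPA library than in the TPA library of the same genotype. In pooled levels Csf3r in FA+TPA was 0.134 of its TPA value, while Cd300lf was 0.234 (counting interval 0.192 to 0.283).

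The labels name no cell type, and the defining markers of neutrophils did not all appear. Elane, the elastase of primary granules, was at 0 in all 8 libraries, Ltf (lactoferrin) reached 0.180 CPM in KO TPA, 0.0616 CPM in WT TPA and 0 elsewhere, and Ly6g reached 1 count. Mature neutrophils in tissue carry little granule RNA, but Ly6g near 0 means that the cells behind these transcripts were not identified as neutrophils here. In tissue libraries, fewer cells of a type and less RNA per cell cannot be told apart.

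Other receptors typical of neutrophils were also higher under TPA. Of 14 listed, 10 were tested, and 8 rose and 1 fell, beside 23.2% of all tested genes higher and 22.8% lower (median log2 change 2.24, against -0.028 over all genes). Cxcr2, the main chemokine receptor of neutrophils, had 36.3 CPM in KO TPA and 34.9 CPM in WT TPA, against at most 2.38 CPM in a vehicle library (4.41 ± 0.22). Ccr1 rose by 6.31 ± 0.42 and the leukotriene B4 receptor Ltb4r1 by 1.58 ± 0.12, while the interleukin-1 decoy receptor Il1r2 fell by 1.79 ± 0.11. Each of these 4 had an edgeR adjusted p under 0.05. The KO TPA and WT TPA levels of Cxcr2 lay close together.

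With FA before TPA, 7 of these 10 receptors fell and 1 rose, beside 4.31% of all tested genes lower and 5.71% higher (median -1.49, against 0.0065 over all genes). The complement C5a receptor gene C5ar1 fell by 2.67 ± 0.47, the integrin gene Itgam by 1.89 ± 0.36 and Cxcr2 by 1.44 ± 0.24, and Il1r2 rose by 1.13 ± 0.12. C5ar1 had 7.23 CPM in KO TPA and 1.11 CPM in WT TPA, and was the 1 gene of the list called higher in KO over all treatments (2.34 ± 0.46, edgeR adjusted p = 0.0203).

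Some granule and cytosolic protein genes of neutrophils were higher under TPA. Of 18 listed, 12 were tested, and 7 rose and none fell under TPA, beside 23.2% of all tested genes higher and 22.8% lower (median 2.76). Of the other 5, 4 had a negative change. S100a8 rose by 7.39 ± 0.61, S100a9 by 6.56 ± 0.56, Lcn2 by 6.25 ± 0.51 and Padi4 by 4.65 ± 0.44, all with edgeR adjusted p under 0.05. S100a8 had 134 CPM in KO TPA and 367 CPM in WT TPA, and S100a9 had 191 CPM in KO TPA and 517 CPM in WT TPA, so these 2 were lower in the KO TPA library. Over treated skin 9 of the 12 were higher in KO than in WT, and over all treatments 11 of 12, with none called by edgeR. S100a8, S100a9 and Lcn2 are also made by activated keratinocytes. With FA, 3 of the 12 fell, namely Mmp9 (-2.23 ± 0.19), S100a8 (-2.63 ± 0.61) and Lcn2 (-1.89 ± 0.49), and none rose.

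Among ligands and chemoattractants of these receptors and cells, 7 of 10 tested genes rose and 1 fell with TPA (median 3.27). Cxcl2, a ligand of Cxcr2, had 10.1 CPM in KO TPA and 1.48 CPM in WT TPA, against 0 in all 4 vehicle libraries. Cxcl3 rose by 7.38 ± 0.65, Saa3 by 6.96 ± 0.51 and Il1b by 2.61 ± 0.18 (each edgeR adjusted p under 0.05). With FA 6 fell and 1 rose (median -1.40), with Ccl4 at -6.22 ± 0.84, Cxcl3 at -4.55 ± 0.64, Cxcl2 at -4.25 ± 0.49 and Il1b at -1.39 ± 0.21. Cxcl2 was called higher in KO over all treatments (2.46 ± 0.45, edgeR adjusted p = 0.0297). Csf3, the ligand of Csf3r, was at most 0.308 CPM in any library and was not tested.

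The signalling machinery behind these receptors changed in both directions. Of 14 adaptor and signalling genes, all tested, 7 rose and 2 fell with TPA (median 0.50), among them Stat3 (1.20 ± 0.09), which acts below Csf3r, and Malt1 (0.90 ± 0.08), which acts with Card9. The phosphatase gene Ptpn6 fell by 0.98 ± 0.14. With FA 4 fell and none rose (median -0.61), including Syk (-1.44 ± 0.18) and Stat3 (-0.88 ± 0.10). Tyrobp and Fcer1g, the adaptors of Trem1 and of the Clec4 receptors, had 8.98 and 8.71 CPM in KO TPA and 5.30 and 4.87 CPM in WT TPA, against 4.18 to 7.19 and 3.33 to 5.36 CPM in vehicle libraries. These adaptors were thus present in vehicle skin, where Trem1, Clec4d and Clec4e were nearly absent.

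Relatives of the members shared their direction in part. In the CD300 family 3 of 4 tested genes rose with TPA, namely Cd300lb (4.64 ± 0.51), Cd300a (2.27 ± 0.50) and Cd300c2 (1.75 ± 0.53), while Cd300lg stood at -0.64 ± 0.48. With FA 1 of the 4 fell, Cd300lb (-3.08 ± 0.56, edgeR adjusted p = 0.00626). Of 5 tested lectin receptors of the Dectin clusters, Clec7a (Dectin-1, 3.73 ± 0.30) and Clec4n (Dectin-2, 0.86 ± 0.30) rose, and Clec7a fell with FA (-3.87 ± 0.40). Trem2, a macrophage receptor and the 1 TREM relative tested, rose with TPA (3.15 ± 0.88, edgeR adjusted p = 0.0134) and was at -0.29 ± 0.79 with FA, which did not pass. Resistin itself, Retn, was not called with TPA (0.97 ± 0.62), and of 4 tested Ly6 genes near Ly6g, 3 rose.

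Markers of other cells moved in the same libraries. The 12 macrophage and monocyte genes summed to 281 CPM in KO FA+TPA, 233 CPM in WT FA+TPA, 497 CPM in KO TPA and 300 CPM in WT TPA, against 184 to 216 CPM in vehicle libraries, and 9 of 12 rose and 1 fell with TPA. With FA, 5 of the 12 fell and 2 rose, beside 4.31% of all tested genes lower and 5.71% higher (median -0.19). The macrophage sums under FA+TPA thus join opposite changes. Mrc1, the mannose receptor of macrophages, had 186 CPM in KO TPA and 42.4 CPM in WT TPA. Ccr2, the receptor of inflammatory monocytes, had 11.3 CPM in KO TPA and 2.71 CPM in WT TPA and was called higher in KO over all treatments (1.58 ± 0.36, edgeR adjusted p = 0.0395). The KO calls of C5ar1, Cxcl2 and Ccr2 were not recomputed with libraries left out. The KO TPA library had the highest macrophage sum too.

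The 6 pan-leukocyte genes summed to 188 CPM in KO TPA and 121 CPM in WT TPA, against 156 to 181 CPM in vehicle libraries. Of these, 1 fell with TPA (Ptprc, -0.54 ± 0.18, edgeR adjusted p = 0.0305) and none rose. Langerhans cell genes summed to 817 CPM in both TPA libraries, against 951 to 1074 CPM in vehicle libraries. That sum joins opposite changes, since 5 of the 7 genes fell with TPA and 2 rose (median -0.86). Cd207 had 12.5 CPM in KO TPA and 11.9 CPM in WT TPA, against 30.6 to 36.3 CPM in vehicle libraries. The 2 that rose were Epcam (221 CPM in KO TPA and 227 CPM in WT TPA) and Mfge8 (118 and 153 CPM). T cell genes summed to 61.9 CPM in KO TPA and 70.0 CPM in WT TPA, against 52.2 to 84.5 CPM in vehicle libraries. Of the 8, 4 fell (Cd3d, Cd3e, Cd3g and Trdc) and 1 rose with TPA (median -0.83). The 1 that rose, Thy1, made up 44.7 CPM of the sum in KO TPA and 51.7 CPM in WT TPA. Eosinophil, basophil and mast cell genes summed to at most 6.58 CPM in any library. The part that the number of cells of each type had in the levels of the 10 genes was not tested.

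**Figure D4:**
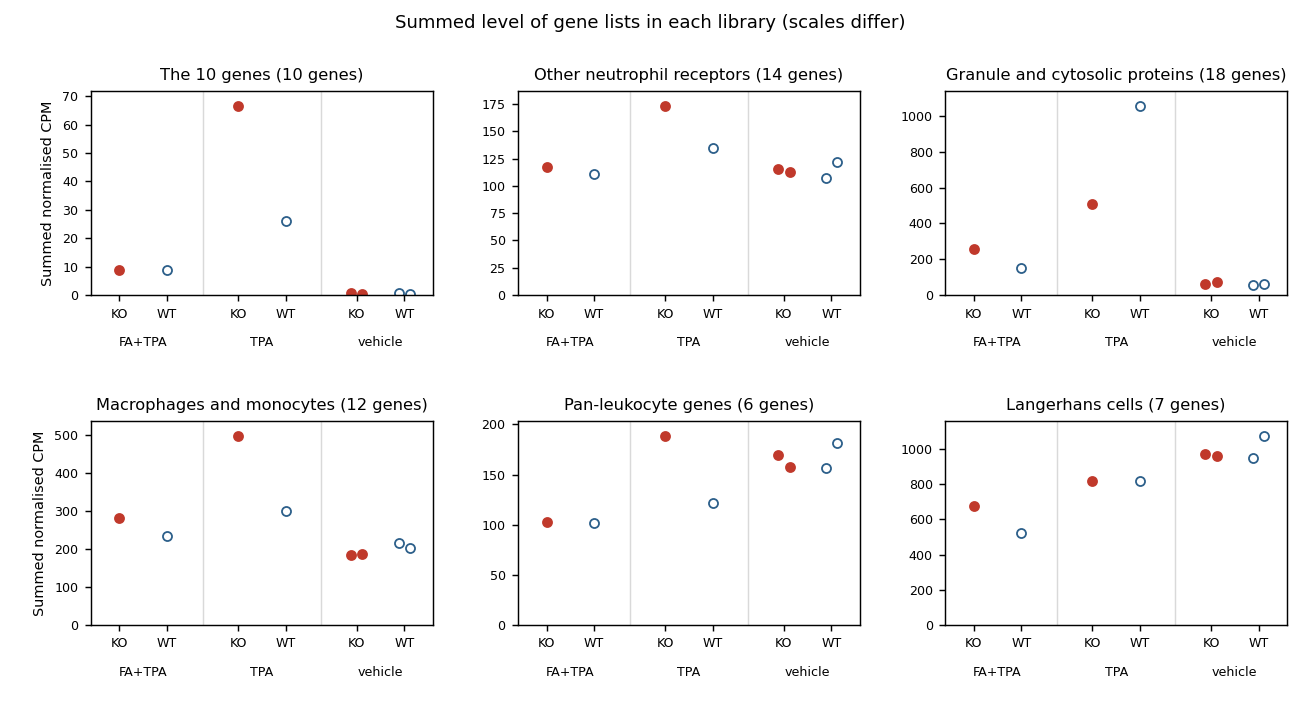
Summed normalised CPM of 6 gene lists in each of the 8 libraries, with KO filled and WT open; the vertical scales differ. The 10 genes reach 66.5 CPM in KO TPA and 26.0 CPM in WT TPA and are at most 0.610 CPM in vehicle, whereas granule and cytosolic genes are at 510 CPM in KO TPA and 1054 CPM in WT TPA.

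Set as ratios of KO TPA to WT TPA, the summed levels were 2.56 for the 10 members, 2.57 for the other CD300 genes and 2.70 for the other lectin receptors. They were 1.28 for the other neutrophil receptors, 1.66 for macrophage genes, 1.55 for pan-leukocyte genes and 0.484 for granule and cytosolic genes. Without S100a8 and S100a9 (left out after their values were seen) the granule and cytosolic ratio became 1.09. What remained, 185 CPM in KO TPA and 170 CPM in WT TPA, was mostly Lcn2 (94.4 and 90.1 CPM) and Mmp9 (37.9 and 48.8 CPM). The value of 1.09 therefore says little about the scarcer genes of that list. Under FA+TPA the ratio of KO to WT was 1.01 for the members, 1.20 for macrophage genes and 1.01 for pan-leukocyte genes. Each ratio compares single libraries and carries no test.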

How the data were processed

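Epidermal total RNA of 8 libraries was sequenced by the authors. The submitters' processing notes name Trim Galore, STAR, HTSeq and mm10. No version, annotation release or strand setting was stated in the labels used here. The deposited files hold raw counts per Ensembl gene. Without a known strand setting, overlapping genes and near-identical copies can share or lose reads.

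Of 54232 identifiers, 54165 matched GENCODE M21. Counts were tested with edgeR 4.0.16 (R 4.3.3; quasi-likelihood, TMM factors 0.859 to 1.102, filterByExpr on treatment, minimum count 10, 19251 genes kept, Benjamini-Hochberg threshold 0.05). Treatment effects and KO against WT over all treatments were fitted additively (4 residual degrees of freedom), and KO against WT within vehicle or treated skin and the interactions with 1 mean per group (2 residual degrees of freedom). SE was taken from the log2 change and its F statistic. The fits were tested on simulated counts. The vehicle pairs differed beyond sampling noise (chi-square per degree of freedom 12.4 in KO and 27.6 in WT). These values include Gm26917, which took 9.24% and 12.3% of counts in the KO vehicle libraries and 13.8% and 8.34% in the WT vehicle libraries. Ratios carry exact 95% intervals.

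Members and gene lists were chosen with earlier results of these data known. All 10 members were named, and from each other list up to 4 genes with the smallest p in the comparison described, plus Csf3, Tyrobp, Fcer1g, Fpr3, Rab37 and the marker genes Elane and Ltf, which were named after their values were seen. The fits were repeated with DESeq2 1.42.0, limma-voom (limma 3.58.1), RLE normalisation or library size only, no filter or a minimum of 50, 1 mean per group, Gm26917 left out, each library left out, and a replicate block.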

Additional observations from a re-analysis of the deposited data

How the results depend on the processing

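Low counts and the single treated libraries limit these results. The count of members called higher under TPA (4) became 8 without the low-count filter and 2 with a minimum count of 50, and was 4 to 7 with a library left out, where the filter admits more members. Members called lower in FA+TPA than in TPA (3) became 1 with limma-voom and 1 to 3 with a library left out. Members called higher in FA+TPA than in vehicle (3) became 5 without the filter and 3 to 5 with a library left out. KO against WT over all treatments (0) became 2 without the filter and 1 with limma-voom. In treated skin (0) it was 0 to 1 with a library left out, and in vehicle skin and for both interactions it stayed 0. Detection of members in vehicle skin was 1 above 3 counts, 7 at any count and 0 at 10 counts. KO minus WT over all treatments ranged, with a library left out, from -0.039 to 1.13 for Csf3r, from -0.18 to 0.90 for Cd300lf and from -0.48 to 1.35 for Clec4d. It was -0.039, -0.17 and -0.48 without KO TPA and -0.011, -0.18 and -0.47 without WT TPA. Of 357 member values under alternatives, 335 kept direction and side of the threshold. Many of these were genotype or interaction values not called in the main fit, and the alternatives share most libraries. That count therefore says little about the calls themselves, such as those of Cd300lf and Clec4d between FA+TPA and TPA, which some alternatives lost.

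Over all genes, calls between FA+TPA and TPA (1929) fell to 571 at the lowest, between FA+TPA and vehicle (6076) to 2652, and for KO against WT over all treatments (690) ranged from 288 to 1552, in vehicle skin (418) from 219 to 1465 and in treated skin (94) from 41 to 988. Those for the TPA interaction (1) ranged from 0 to 365 and for the FA interaction (0) from 0 to 183. Scaling by library size only shifted all genes by a median of -0.25 for TPA against vehicle, -0.23 for FA+TPA against vehicle, 0.11 for KO against WT in treated skin, and 0.19 and -0.20 for the TPA and FA interactions. The split of higher to lower calls became 2846 to 6432 (with TMM, 4472 to 4380) for TPA against vehicle, 1953 to 4982 (3347 to 2729) for FA+TPA against vehicle, 640 to 233 (382 to 308) for KO against WT over all treatments and 60 to 70 (23 to 71) in treated skin. The members' calls were the same in count under that scaling.

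Equal numbers of the vehicle replicates did not pair the libraries (correlation of deviations -0.098 over 19251 genes). On the vehicle libraries alone, in which no member passed the filter, the fit with the replicate block called 0 members and 651 genes, and the fit without the block 0 members and 280 genes.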

Other observations

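Fpr1 and Fpr2, read from opposite strands of neighbouring loci, had the same count in each of the 4 treated libraries (21, 5, 3 and 1), although 0.0784% of the 50-base exon windows of Fpr1 and 31.5% of those of Fpr2 occur in another gene. Their vehicle counts differed in 1 library, WT vehicle, with 2 for Fpr1 and 0 for Fpr2. The cause was not tested.

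Ccl4, a chemokine of activated myeloid cells, had 0.0604 CPM in KO FA+TPA and 0 CPM in WT FA+TPA, against 4.85 CPM in KO TPA and 0.801 CPM in WT TPA. Cd300ld had 0.121 CPM in KO FA+TPA and 0.0636 CPM in WT FA+TPA, against 2.15 CPM in KO TPA and 0.616 CPM in WT TPA. Retn, in contrast, was higher in each KO treated library, with 2.54 CPM in KO FA+TPA and 3.01 CPM in KO TPA, against 0.573 CPM in WT FA+TPA and 0.493 CPM in WT TPA, and it reached 2.45 CPM in 1 KO vehicle library. Mpo, the myeloperoxidase of primary granules, ran the other way, at 0.785 CPM in KO FA+TPA and 0.827 CPM in WT FA+TPA, against 0.0898 CPM in KO TPA and 0.370 CPM in WT TPA. These genes were picked after their values were seen.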
